A study of Mus musculus with 3 samples.

Results

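Enteroendocrine cells were examined in a droplet single-cell RNA experiment on the small intestine of male ICR mice. A cell was counted as enteroendocrine when its unique molecular identifiers (UMIs, one per captured RNA molecule) for Chgb, Cpe, Scg2 and Neurod1 summed to at least 10 per 10000 and its Defa transcripts, the Paneth cell defensins, stayed under 1500 per 10000. By this rule 143 of 12653 cells were enteroendocrine. Members with a UMI of Tph1 or Tac1 (41 cells), the side on which enterochromaffin cells would lie, were kept apart from the other 102 members. The mice were 3 weeks old when treatment began, and all groups were gavaged for 2 weeks. AOS 0 mice received water and neither busulfan nor alginate oligosaccharide (AOS). B + A 0 mice received a single injection of busulfan, an alkylating chemotherapy drug, at 40 mg/kg, then water and no AOS. B + A 10 mice received the same busulfan dose, then AOS at 10 mg/kg. Cells isolated from 6 mice were mixed into 1 library per group, so neither a treatment nor the mouse-to-mouse spread can be told apart from the library, and no test between groups was possible. All intervals below are 95% intervals that cover counting error only. Those of shares count cells, and those of levels and ratios count UMIs and leave out the spread between cells.

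Enteroendocrine cells are scattered hormone-secreting cells of the gut lining that release peptides and serotonin in response to nutrients and other signals in the lumen. They arise from crypt stem cells through progenitors that briefly express the transcription factor Neurog3, and later factors such as Neurod1, Isl1 and Pax6 accompany the choice between hormone programmes. Enterochromaffin cells make serotonin with the enzyme Tph1 and often the tachykinin precursor Tac1, while other enteroendocrine cells make mixtures of peptide hormones.

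The 3 libraries held 4106 cells for AOS 0, 3195 for B + A 0 and 5352 for B + A 10, and unlabelled triplets of values below keep this order. They had a median of 7371, 6407 and 3505 UMIs per cell. In the enteroendocrine cells the medians were 4776, 5514.5 and 3139.5 UMIs, so B + A 10 was the shallowest. Between 17 and 34 cell barcodes recurred in each pair of libraries, no pair of cells with 1 barcode was enteroendocrine in both libraries, and 1 member's barcode also occurred in another library. Of the members, 5, 3 and 3 had a doublet score in the highest 5% of their library. One label field gives the busulfan libraries other group names. There the B + A 10 library is called B+A0. The B + A 0 library is called AOS10, which in the paper names a group given AOS and no busulfan. The title, description and treatment fields, which name the groups as used here, were followed. In the 4-gene sum that chose the cells, the 3 lowest members stood at 10.2, 11.1 and 11.2 UMIs per 10000 and the 3 highest cells outside at 9.42, 9.03 and 8.75. The Defa limit removed 0 cells, and the members' highest Defa sum was 363.

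Granins, which package hormones into secretory granules, made up most of the UMIs that chose the cells. Chgb (chromosome 2, 132781278 to 132795079, GRCm38) had a UMI in 135 members, and Chga, a granin that the rule did not use, in 100 members. Chga UMIs were in 44 of 57 cells of AOS 0, 19 of 28 of B + A 0 and 37 of 58 of B + A 10. Outside the members 14.9% of AOS 0 cells, 15.4% of B + A 0 cells and 8.65% of B + A 10 cells held a Chga UMI, at medians of 7407, 6410 and 3508 UMIs per cell. The members' Chga shares of 77.2%, 67.9% and 63.8% stood above those background shares in every library. After every cell was thinned to 1000 UMIs, the members' shares were 45.6%, 32.1% and 25.9%, against at most 3.28% outside.

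Enteroendocrine cells formed 57 of 4106 cells in AOS 0 (1.39%, 1.05 to 1.79), 28 of 3195 in B + A 0 (0.876%, 0.583 to 1.26) and 58 of 5352 in B + A 10 (1.08%, 0.824 to 1.40). B + A 0 was below AOS 0 by a difference of -0.512 percentage points (-0.999 to -0.0125). B + A 10 differed from B + A 0 by 0.207 points (-0.251 to 0.621) and from AOS 0 by -0.305 points (-0.778 to 0.141), and both intervals include 0. When cells were thinned before the rule was applied, the first difference turned to 0.00967 points, and with a limit of 5 per 10000 in the rule it was -0.376 (-0.905 to 0.171). The members without Tph1 and Tac1 were 1.07%, 0.376% and 0.859% of all cells. On that side B + A 0 was lower than AOS 0 by a difference of -0.696 points (-1.09 to -0.306), and B + A 10 was higher than B + A 0 by 0.484 points (0.131 to 0.811). These differences on that side were not repeated with thinned cells. The side needs 0 UMIs of both genes, so its size depends on depth, which differed between the libraries.

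**Figure D1:**
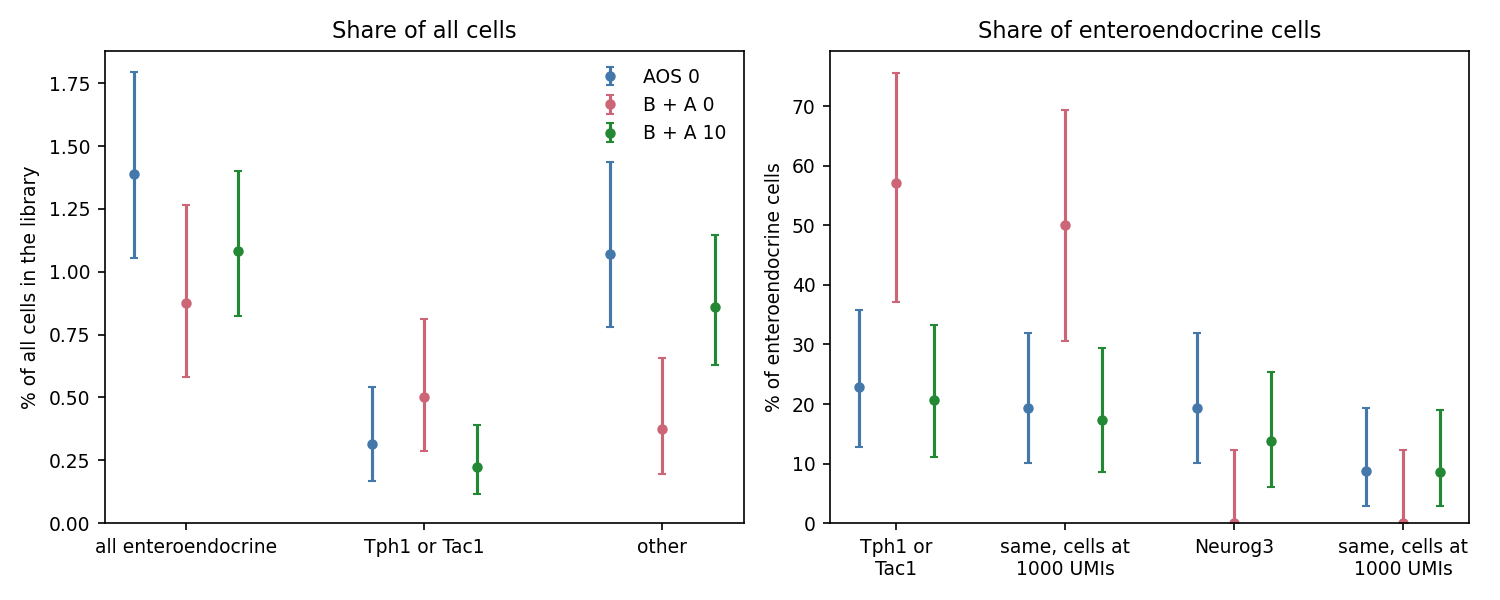
Left, enteroendocrine cells and their 2 sides as a percentage of all cells of each library. Right, members with Tph1 or Tac1 and with Neurog3 as a percentage of enteroendocrine cells, before and after thinning to 1000 UMIs, with exact 95% binomial intervals as bars. B + A 0 shows the lowest share of members (0.876%), the highest of Tph1 or Tac1 cells (57.1%) and 0 Neurog3 cells.

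Tph1, the enzyme that starts serotonin synthesis in the gut, and Tac1, the precursor of substance P, marked a larger part of the enteroendocrine cells in B + A 0. The Tph1 or Tac1 cells were 13 of 57 members in AOS 0 (22.8%, 12.7 to 35.8), 16 of 28 in B + A 0 (57.1%, 37.2 to 75.5) and 12 of 58 in B + A 10 (20.7%, 11.2 to 33.4). B + A 0 exceeded AOS 0 by 34.3 points (12.4 to 53), and B + A 10 differed from B + A 0 by -36.5 points (-54.9 to -14.7). AOS 0 and B + A 10 differed by -2.12 points (-17.1 to 12.9). As shares of all cells, the Tph1 or Tac1 cells were 0.317%, 0.501% and 0.224%, and the members without either gene were fewest in B + A 0, with 44, 12 and 46 cells.

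The order of these shares held after thinning, with 19.3%, 50% and 17.2% of members holding a UMI of either gene. The thinned differences were 30.7 points (9.57 to 49.9) from AOS 0 to B + A 0 and -32.8 points (-51.7 to -11.8) from B + A 0 to B + A 10. With a limit of 10 UMIs per 10000 in place of any UMI, the same differences were 7.46 (-9.62 to 27.4) and -11.2 points (-30.7 to 5.40). Without members of 5 or more cycling marker UMIs they were 17.3 (-4.72 to 43.4) and -20.3 points (-46.2 to 1.82), and all 4 of these intervals include 0. Tac1 also had a UMI outside the members, in 4.42%, 4.74% and 2.93% of cells, and Tph1 in 22 of 12510 such cells (0.176%). In the 3 libraries the median depth was 5280, 8281.5 and 4446 UMIs on the Tph1 or Tac1 side and 4662.5, 5154 and 3044 in the other members.

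The Tph1 or Tac1 side held cells of more than one kind. Tac1 had a UMI in 36 members, and 23 members held both genes. Scg2, a granin of peptide hormone cells, had a UMI in 1 of the 36 Tac1 cells, and none of them was high in Nts. The 5 members with Tph1 and no Tac1 were all high in Nts, the neurotensin precursor, with 323 to 1730 Nts UMIs each. Another 10 members had 1 to 5 Tac1 UMIs and no Tph1. They included 1 cell of B + A 0 with 1220 Gip UMIs and 1 of AOS 0 with 14 Neurog3 UMIs. For this reason the label enterochromaffin is not used for the whole side.

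As a description of the genes that chose the cells, Chgb made up 90.9% of the 1692 rule-gene UMIs on the Tph1 or Tac1 side and 53.9% of the 2100 in the other members. Cpe, which trims prohormones, made up 3.78% and 21.7%, and Scg2 1.77% and 15.1%. Rab3c, a small GTPase of regulated exocytosis, had a UMI in 20 of 41 Tph1 or Tac1 cells and in 1 of 102 others, at 197.5 against 2.06 counts per 1000000 UMIs (CPM). Slc18a1, the vesicular transporter that loads serotonin, was found in 12 of 41 and 13 of 102 cells. Ddc, the enzyme after Tph1, was widespread on both sides, in 35 of 41 and 77 of 102 cells. Most UMIs of both of these genes lay outside the members, which held 7.78% of all Slc18a1 and 4.96% of all Ddc UMIs. Trpa1, an irritant-sensing channel of enterochromaffin cells, was seen with 6 UMIs in 4 cells, and these were Tph1 or Tac1 cells of B + A 0.

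Across genes with at least 100 UMIs over the members, 25 of 1014 (2.47%) were over 2-fold higher in the Tph1 or Tac1 cells than in the other members in every library, and 23 (2.27%) were over 2-fold lower. Tac1 was the first of the higher genes by the construction of the split. The others with the largest ratios were 2810417H13Rik, Hmgb2 and Olfm4. Hmgb2, a chromatin protein of dividing cells, was higher by 2.07 on the log2 scale (1.75 to 2.40), with UMIs in 32 of 41 and 31 of 102 cells. Olfm4, a crypt stem cell marker, was higher by 1.94 (1.62 to 2.28), and Tuba1b, a tubulin of dividing cells, by 1.78 (1.39 to 2.18). Over all of their genes, cycling markers summed to 1950 CPM against 506, and stem markers to 1266 against 327. Of the 36 Tac1 cells, 22 carried 5 or more cycling marker UMIs, namely 5, 11 and 6 in the 3 libraries. Without members of 5 or more such UMIs, 566 genes had enough UMIs, of which 2 (Tac1 and Pebp1) were past 2-fold higher in every library. Another 4 (Gcg, Gip, Nnat and Pyy) were past 2-fold lower. Of the 25 higher genes only 4 had enough UMIs there, and of the 23 lower genes 21 had.

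Among the lower genes were hormone precursors and granule proteins. Pyy, precursor of the satiety peptide PYY, was lower by a log2 ratio of -5.79 (-6.06 to -5.53), and Gcg, from which GLP-1 is cut, by -6.32 (-6.89 to -5.80). Gip, the glucose-dependent insulinotropic peptide, had a ratio of -4.88 and Ghrl, the ghrelin precursor, of -5.22. Scgn, a calcium sensor of secretion, had a ratio of -2.61 (-3.45 to -1.87), Isl1 of -2.58 and the rule gene Scg2 of -2.62. In B + A 0 the 16 Tph1 or Tac1 cells held 0 UMIs of Pyy, and the other members stood at 1564-fold of a floor of 3 UMIs. That floor counts UMIs and not cells, so it gives no lower bound on the ratio. Cdkn1a, the p53-induced cell cycle inhibitor, was lower by -2.14 (-2.75 to -1.57). Of the lower genes named here, only Pyy, Gcg and Gip stayed past 2-fold lower in every library without members of 5 or more cycling marker UMIs. The hormone list of 14 measured genes summed to 43043 CPM on the Tph1 or Tac1 side and 250930 in the other members.

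**Figure D2:**
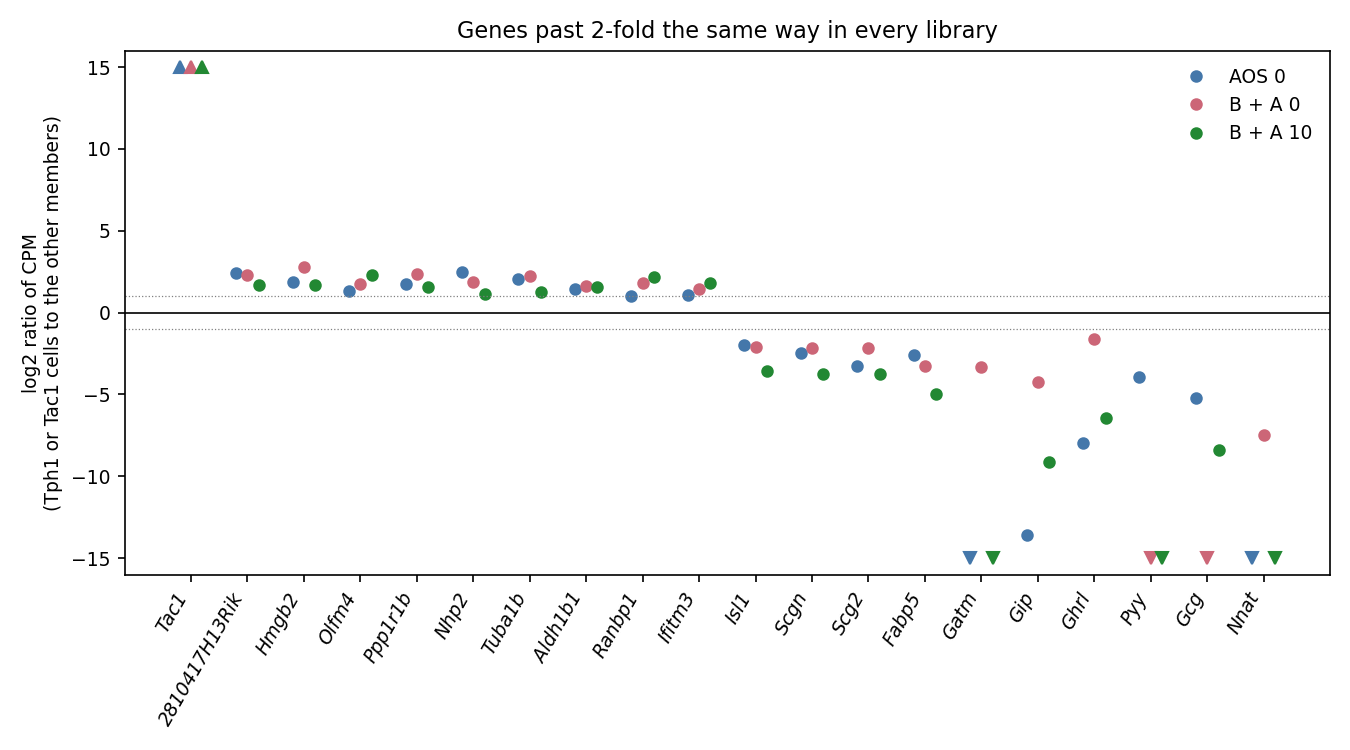
Log2 ratio of CPM in the Tph1 or Tac1 cells to the other members, for the genes with the largest and smallest ratios, with 1 point per library. Dotted lines mark 2-fold and triangles at the edge mark ratios against a side with 0 UMIs, which for Tac1 follows from the split, and the cycling and stem genes lie above and the hormone genes below 0 in all 3 libraries.

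A hormone was called high in a cell at 20 or more UMIs per 10000 with at least 2 UMIs. Secretin (Sct), which calls bicarbonate from the pancreas, was the most widespread, high in 94 of the 143 members, namely 38 in AOS 0, 17 in B + A 0, and 39 in the B + A 10 library. Cholecystokinin (Cck), which contracts the gallbladder, was high in 67 (27, 8 and 32), Gip in 44 (16, 9 and 19) and Pyy in 42 (19, 6 and 17). Gcg was high in 27 (14, 3 and 10), Ghrl in 23 (13, 3 and 7), Nts in 22 (5, 6 and 11) and Tac1 in 11 (6, 2 and 3). Somatostatin (Sst) was high in 1 cell, of AOS 0. Outside the members Sct was high in 140 cells, which carried a median of 127 Muc2 and 1360 Tff3 UMIs per 10000, the mucin and trefoil peptide of goblet cells, and a median Chgb of 0. The other hormones were high in at most 12 cells outside.

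**Figure D3:**
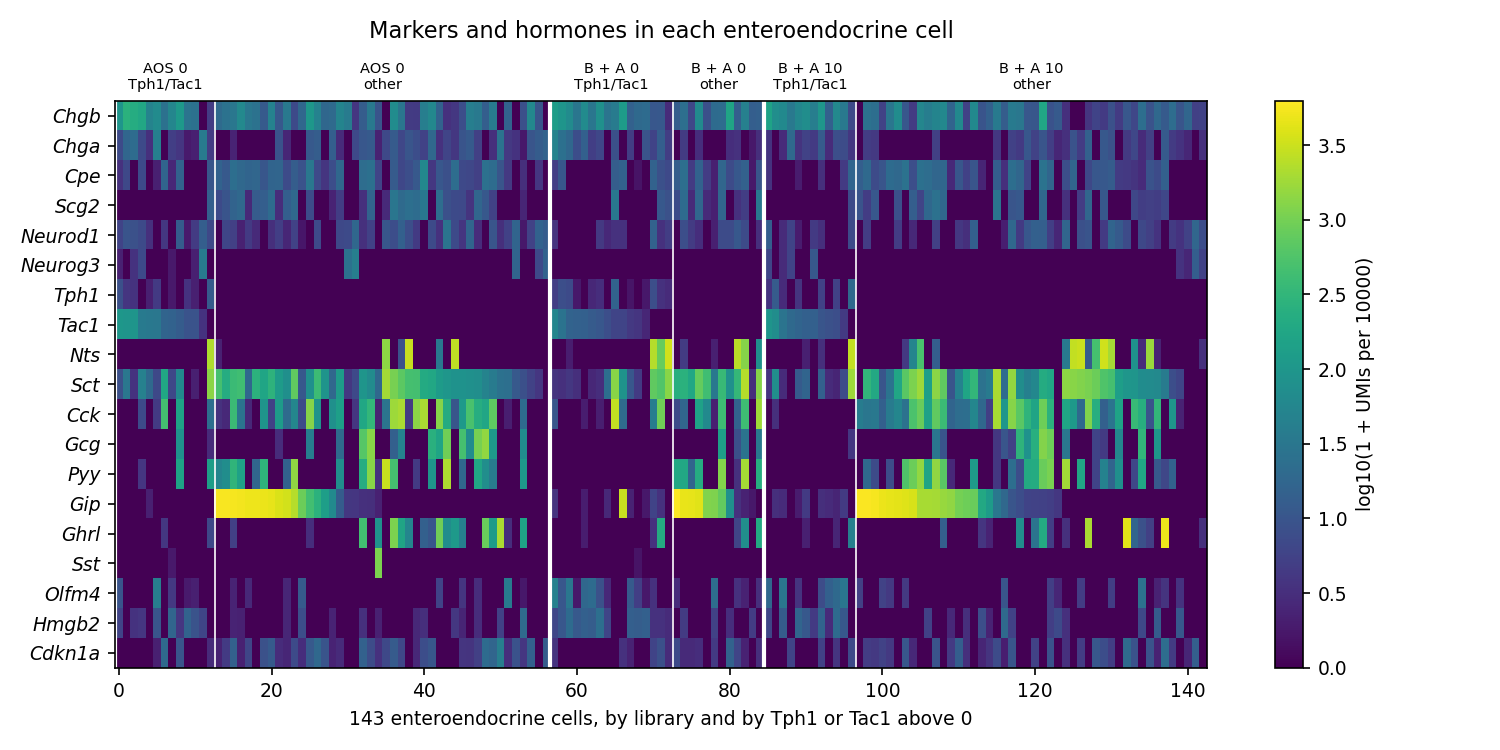
Marker and hormone genes (rows) in the 143 enteroendocrine cells (columns), grouped by library and by the Tph1 or Tac1 side, with colour for log10(1 + UMIs per 10000). Gip is brightest and lies almost wholly in the other members, Tac1 and Tph1 are dark there by the construction of the split, and Sst is bright in 1 AOS 0 cell.

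Between the libraries, Cck was high in 47.4% of AOS 0 members, 28.6% of B + A 0 members and 55.2% of B + A 10 members. B + A 10 exceeded B + A 0 by 26.6 points (4.16 to 44.6), or 16.4 (-5.42 to 34.2) with Cck called high at 50 per 10000, and B + A 0 differed from AOS 0 by -18.8 points (-37.2 to 3.45). For Sct, Gip, Pyy, Gcg, Ghrl, Nts and Tac1 every interval of a difference included 0, which at 28 members in B + A 0 leaves wide ranges. Nts, for example, was high in 8.77%, 21.4% and 19.0% of members, and B + A 0 differed from AOS 0 by 12.7 points (-2.49 to 31.4). Gcg was high in 24.6%, 10.7% and 17.2%, a difference of -13.8 points (-28.2 to 5.09) for the same pair. For 3 of these hormones another limit gave an interval that excludes 0. Gcg at 50 per 10000 gave -17.5 points (-30.1 to -0.942) for B + A 0 less AOS 0. Nts in B + A 10 less AOS 0 gave 13.6 points (0.178 to 26.9) at 10 per 10000 and 15.4 (1.66 to 28.7) for any UMI after thinning. Tac1, which defines the split, gave 25.3 (5.14 to 45.0) and -27.3 points (-46.8 to -7.40) for any UMI after thinning.

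**Figure D4:**
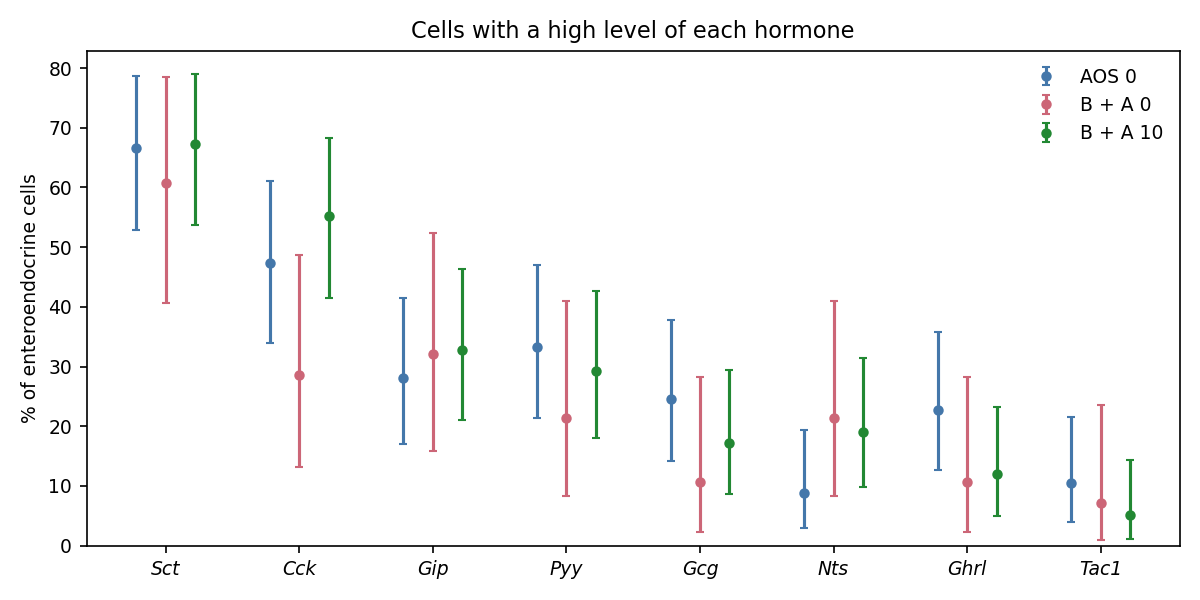
Percentage of enteroendocrine cells high in each hormone in the 3 libraries, with exact 95% binomial intervals for counting error. Sct leads in every library (60.7% to 67.2%), and Cck is lowest in B + A 0 (28.6%).

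Single hormones could fill much of a cell's RNA. Gip reached 62.6% of the UMIs of its highest cell, passed 10% in 32 cells and 50% in 9. Ghrl reached 50.2%, Nts 34.1%, Pyy 30%, Cck 28.0%, Sct 23.7% and Gcg 15.3%. Tac1 stayed at 1.02% in its highest cell, with 84 UMIs. In Gip-high cells the median Gip level was 4116, 3015 and 1969 UMIs per 10000, and the ranges of the 3 libraries overlapped (lowest 63.7, 78.5 and 31.5, highest 5771, 6261 and 5883).

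Most enteroendocrine cells were high in more than 1 hormone. Of the 143, 96 were high in 2 or more, and 92 of these included Sct. By number of hormones, 32 cells had none, 15 had 1, 26 had 2, 31 had 3, 25 had 4, 12 had 5 and 2 had 6. The cells with none were 20 of the 41 Tph1 or Tac1 cells and 12 of the 102 others. Of the 32, 19 carried 5 or more cycling marker UMIs and 18 had a UMI of Olfm4.

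Hormones paired unevenly. Cck and Sct were high together in 63 cells, 94.0% of the Cck-high and 67.0% of the Sct-high cells. Gcg-high cells were high in Cck in 26 of 27 cases and in Pyy in 20. Gip and Pyy shared 17 cells, and the most common set of 3 hormones was Cck, Sct and Gip, in 10 cells. Gip met Gcg in 3 cells, Nts in 2 and Ghrl in 0 cells, although 44 members were high in Gip and 23 in Ghrl. Tac1 was high together with Sct in 3 cells and with no other of these hormones. These pairings are a description of the same cells that define the hormone groups.

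Each hormone group also differed from the other members in its leading genes, and these ratios are given without a test because the cells were chosen on the same libraries. They pool the cells of all libraries. Gip-high cells led in Fabp5, a fatty acid binding protein, with 6472 against 370 CPM (log2 4.13), and in Gatm, an enzyme of creatine synthesis (log2 3.83). Nnat led them by ratio (log2 8.67), but 40.6% of its UMIs came from 1 cell. Nts-high cells led in S100a6, a calcium-binding protein (log2 3.68), with 22.5% of its UMIs from 1 cell. They also led in Agr2, a secretory pathway chaperone (log2 2.66) that is among the goblet markers summed below. Tac1-high cells led in Olfm4 (1689 against 367 CPM), Chga (log2 2.15), Fev (log2 1.76), a transcription factor of serotonin-producing cells, and Chgb (log2 1.98), which is a gene of the rule.

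The summed RNA of several hormones differed between libraries by more than the counting error of UMIs, which leaves out the spread between cells. Among the 8 hormones above Gcg and Ghrl had the largest ratios, although their shares of high cells had intervals that include 0. Gcg had 3076, 103 and 959 UMIs in the members of the 3 libraries, or 9501, 486 and 4092 CPM. The log2 ratio of B + A 0 to AOS 0 was -4.29 (-4.59 to -4.01), and that of B + A 10 to B + A 0 was 3.07 (2.78 to 3.38). In the members without Tph1 and Tac1 alone the ratios were -3.19 and 1.98. Gcg-high cells numbered 14, 3 and 10, so few cells carry these sums. Outside the members Gcg stood at 2.81, 12.2 and 5.27 CPM. The members held 96.9%, 24.6% and 88.9% of all Gcg UMIs, so most Gcg RNA of B + A 0 lay outside the rule. The ratios above hold for the members and not for the whole library.

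Ghrl had 2828, 236 and 3995 UMIs (8735, 1113 and 17046 CPM), a log2 ratio of -2.97 (-3.17 to -2.78) and then 3.94 (3.75 to 4.13). One B + A 10 cell held 1870 of them, and without it the second ratio was 3.05 and B + A 10 to AOS 0 moved from 0.96 to 0.08. A second B + A 10 cell held 1300, and without both cells these ratios were 1.70 (1.49 to 1.92) and -1.27 (-1.38 to -1.16). Outside the members Ghrl stood at 8.10, 16.8 and 31.4 CPM. The members held 90.9%, 35.2% and 84.8% of all Ghrl UMIs, so most Ghrl RNA of B + A 0 also lay outside the rule. Gip had 34326, 13392 and 16188 UMIs, with log2 ratios of -0.75 (-0.78 to -0.72) and then 0.13 (0.10 to 0.16). Nts had 4513, 5038 and 4681, with ratios of 0.77 (0.71 to 0.83; 0.20 without its highest cell) and -0.25 (-0.31 to -0.19). The ratios of Sct were 0.48 and 0.16, those of Cck -0.48 and 0.27 and those of Pyy -0.51 and 0.44. Single cells of B + A 0 held 59.8% of its members' Pyy UMIs, 37.9% of Cck and 32.8% of Sct. These ratios therefore depend on single cells. Sst had 877 UMIs in all members, of which 875 lay in 1 AOS 0 cell, so its ratio of B + A 0 to AOS 0 was 0.57 without that cell. Outside the members the log2 ratios of Gip against AOS 0 were 1.31 for B + A 0 and 2.26 for B + A 10. In the members they were -0.75 and -0.62, and the members held 96.8%, 86.6% and 82.1% of all Gip UMIs.

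Over all genes with at least 100 UMIs in the members of the pair, 19 of 707 (2.69%) were past 2-fold higher and 28 (3.96%) past 2-fold lower in B + A 0 than in AOS 0. From B + A 0 to B + A 10, 17 of 594 genes (2.86%) were past 2-fold higher and 9 (1.52%) lower. B + A 10 against AOS 0 gave 27 of 723 (3.73%) higher and 19 (2.63%) lower. Of 9 hormone genes with enough UMIs, 3 (Gcg, Ghrl and Sst) were past 2-fold lower in B + A 0 than in AOS 0 and 0 higher. All 3 endocrine transcription factors with enough UMIs were past 2-fold lower, namely Isl1, Insm1 and the rule gene Neurod1, and 1 of 7 granin and processing genes, the rule gene Cpe, was too.

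Endocrine transcription factors were lower in the enteroendocrine cells of B + A 0. Summed over 26 genes they stood at 2863, 1014 and 1681 CPM from AOS 0 to B + A 10, while outside the members they stood at 164, 168 and 161. The order was the same on the Tph1 or Tac1 side (2469, 810 and 1230 CPM) and in the other members (3002, 1397 and 1840 CPM). The log2 ratio was -1.50 (-1.72 to -1.28) from AOS 0 to B + A 0 and 0.73 (0.49 to 0.98) from B + A 0 to B + A 10. The sum includes the rule gene Neurod1. Over the 25 other genes it was 2443, 821 and 1344 CPM, with ratios of -1.57 (-1.82 to -1.34) and 0.71 (0.44 to 0.99). Leaving Neurod1 out of the sum does not take it out of the rule, so these ratios still depend on how the members were chosen. Members of AOS 0 with 5, 6 and 14 Neurog3 UMIs passed the rule on Neurod1 alone. The part of the rule in these ratios was not tested. Isl1, which acts in several hormone lineages, had 99 UMIs in 35 of 57 cells, 13 in 8 of 28 and 34 in 26 of 58. Its ratios were -2.32 (-3.28 to -1.48) and 1.24 (0.28 to 2.29), and in the members without Tph1 and Tac1 -1.64 and 0.64. Pax6, another factor of the endocrine lineage, had 45, 8 and 17 UMIs. Insm1, a factor of early endocrine differentiation, had 102, 28 and 64 UMIs, with ratios of -1.25 (-1.91 to -0.64) and 1.05 (0.39 to 1.74).

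Neurog3, the factor that commits progenitors to the endocrine lineage, was detected in 11 of 57 members of AOS 0, 0 of 28 of B + A 0 and 8 of 58 of B + A 10. The 0 of 28 cells in B + A 0 allow a share of cells with a UMI of up to 10.7% by the floor of 3 counts, which is not a limit on cells that express the gene. Its UMIs numbered 55, 0 and 15. AOS 0 stood at 12.0-fold and B + A 10 at 4.52-fold of a floor of 3 UMIs over the members of B + A 0. The floor counts UMIs and not cells, and 5 AOS 0 cells held 5 or more each, so these are not lower bounds. The shares differed by -19.3 points (-31.3 to -4.73) from AOS 0 to B + A 0 and by 13.8 (0.0248 to 24.9) from B + A 0 to B + A 10. After thinning, 5, 0 and 5 members kept a UMI, and both intervals included 0 (-18.9 to 4.27 and -4.39 to 18.6). With a limit of 20 per 10000 in the rule the differences were -16 (-28.5 to 1.26) and 14.3 points (-2.93 to 27.8). The second was 12.3 points (-1.63 to 23.2) with a Defa limit of 150 and 14.5 (-0.495 to 26.2) without the highest 5% of doublet scores.

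Neurog3 was not missing from the B + A 0 library. Outside the members it had a UMI in 16, 20 and 11 cells, with 49, 58 and 26 UMIs. Over all cells its share was 0.658%, 0.626% and 0.355%. Of the 20 cells of B + A 0, 5 had a UMI of the 4 rule genes, 17 had Sox4 and 16 Olfm4, and 12 had Insm1. Their highest 4-gene sum was 8.75 per 10000, under the limit of 10, so these cells stayed outside through the rule. Neurod2 and Pax4, which follow Neurog3, had 11, 0 and 1 UMIs and 10, 0 and 2 UMIs in the members. Any of the 3 genes was found in 19 of 57, 0 of 28 and 9 of 58 members.

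**Figure D5:**
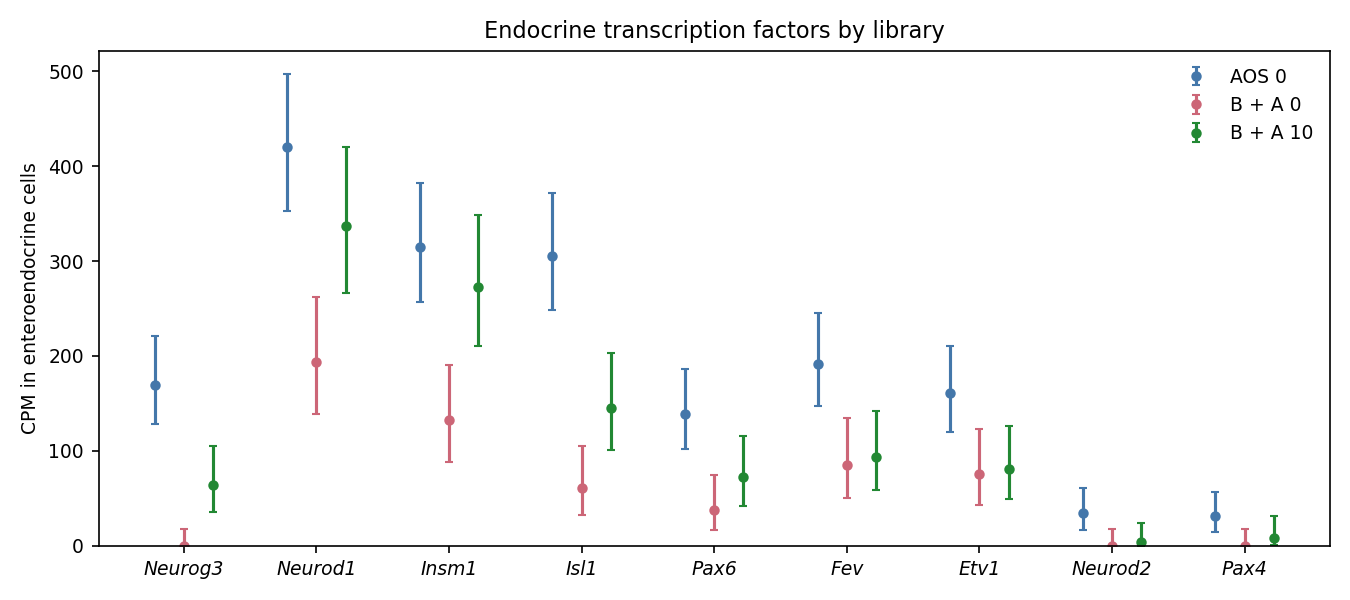
CPM of endocrine transcription factors in the enteroendocrine cells of the 3 libraries, with exact 95% Poisson intervals for counting error. Isl1 stood at 306, 61.3 and 145 and Neurog3 at 170, 0 and 64.0 in the 3 libraries, left to right.

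Start sites of the 4 hormones high in the most members (Sct, Cck, Gip and Pyy), of Tac1, which defines the split, and of Neurog3, the progenitor factor, are printed. Neurog3 and Neurod1 are basic helix-loop-helix factors that bind E-box letters, so the 300 bases from 250 before to 50 after each RefSeq start (GRCm38.p6, 5′ to 3′ on the gene's strand) were searched for CAGATG, its reverse complement CATCTG, and CAGCTG, which is its own reverse complement. Capitals mark the letters found. Sct lies on the minus strand at chr7:141279084-141279383, Cck on the minus strand at chr9:121495645-121495944, Gip on the plus strand at chr11:96024295-96024594, Pyy on the minus strand at chr11:102107783-102108082 (1 of its 2 starts), Tac1 on the plus strand at chr6:7554811-7555110 and Neurog3 on the plus strand at chr10:62132840-62133139.
Sct: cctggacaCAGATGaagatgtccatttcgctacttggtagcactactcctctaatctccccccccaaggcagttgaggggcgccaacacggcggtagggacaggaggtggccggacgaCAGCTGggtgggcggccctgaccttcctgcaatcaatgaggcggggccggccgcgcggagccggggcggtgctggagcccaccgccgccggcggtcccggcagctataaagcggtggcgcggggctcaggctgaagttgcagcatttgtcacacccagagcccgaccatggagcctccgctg
Cck: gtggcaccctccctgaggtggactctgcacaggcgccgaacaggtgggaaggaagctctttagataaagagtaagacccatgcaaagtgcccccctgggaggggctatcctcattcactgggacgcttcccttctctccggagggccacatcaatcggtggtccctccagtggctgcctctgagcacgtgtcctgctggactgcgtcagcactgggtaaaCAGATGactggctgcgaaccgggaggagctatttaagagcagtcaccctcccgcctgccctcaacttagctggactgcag
Gip: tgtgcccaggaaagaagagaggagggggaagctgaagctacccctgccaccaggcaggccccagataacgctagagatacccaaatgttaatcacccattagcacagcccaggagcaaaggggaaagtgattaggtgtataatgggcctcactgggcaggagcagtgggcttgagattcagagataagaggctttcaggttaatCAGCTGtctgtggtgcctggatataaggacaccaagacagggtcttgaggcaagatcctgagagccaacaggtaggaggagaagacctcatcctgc
Pyy: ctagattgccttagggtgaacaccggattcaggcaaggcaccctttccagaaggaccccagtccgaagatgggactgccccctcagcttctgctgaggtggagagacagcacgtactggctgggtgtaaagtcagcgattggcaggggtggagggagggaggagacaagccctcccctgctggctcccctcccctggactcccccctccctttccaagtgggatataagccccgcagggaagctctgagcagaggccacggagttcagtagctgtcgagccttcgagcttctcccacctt
Tac1: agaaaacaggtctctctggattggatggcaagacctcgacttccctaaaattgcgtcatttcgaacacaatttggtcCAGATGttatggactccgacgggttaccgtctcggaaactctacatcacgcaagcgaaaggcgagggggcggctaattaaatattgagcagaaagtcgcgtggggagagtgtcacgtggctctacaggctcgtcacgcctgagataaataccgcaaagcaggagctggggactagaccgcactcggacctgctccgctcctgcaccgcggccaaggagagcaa
Neurog3: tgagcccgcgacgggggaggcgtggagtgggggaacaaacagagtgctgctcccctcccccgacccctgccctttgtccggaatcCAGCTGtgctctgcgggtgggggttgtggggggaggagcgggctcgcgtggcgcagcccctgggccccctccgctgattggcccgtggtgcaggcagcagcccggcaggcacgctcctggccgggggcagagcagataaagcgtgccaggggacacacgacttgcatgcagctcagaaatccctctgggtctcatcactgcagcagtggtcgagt
The Sct match of CAGATG begins 242 bases before the start and that of CAGCTG 132 bases before. The Cck match lies 30, the Gip match 46, the Tac1 match 173 and the Neurog3 match 165 bases before the start, and neither Pyy start had a match. Of the 8 hormone genes searched, 7 had a match at 1 or more starts. This counts genes, some with several starts, and cannot be set against the shares of single promoters that follow. Of 32851 promoters of this length, 17.2% held CAGATG on either strand, 16.3% held CAGCTG and 30.6% held either, so a match is common and describes letters only.

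Other enteroendocrine gene lists differed in how they were ordered over the libraries. Regulated exocytosis genes summed to 1702, 745 and 1178 CPM, against 92.8, 95.2 and 89.3 outside, and in the members without Tph1 and Tac1 to 1850, 895 and 1263 CPM. Nutrient and bile acid receptors, which sense food in the lumen, summed to 358, 127 and 226, with a log2 ratio of -1.49 (-2.15 to -0.88) from AOS 0 to B + A 0 over 9 genes measured. Ion channels summed to 436, 231 and 358 over 11 genes. No gene of these last lists reached 100 UMIs in the members. Gfra3, a receptor subunit marking enteroendocrine cells, had 128, 22 and 24 UMIs, with ratios of -1.93 (-2.65 to -1.27) and -0.02 (-0.92 to 0.88), and its sums in both busulfan libraries lay below that of AOS 0. Granins and hormone processing genes, which include 3 of the rule genes, summed to 7175, 6334 and 5594 CPM, with a ratio of -0.18 (-0.29 to -0.07) from B + A 0 to B + A 10. Serotonin synthesis and handling genes summed to 1415, 1066 and 1088 CPM, against 797, 668 and 782 outside. Their ratio from B + A 0 to B + A 10 was 0.03 (-0.23 to 0.29). On the Tph1 or Tac1 side they summed to 1875, 1113 and 1574 CPM, and in the other members to 1253, 977 and 917. The remaining enteroendocrine markers summed to 8318, 4707 and 4817 CPM, with a ratio of 0.03 (-0.09 to 0.16) from B + A 0 to B + A 10.

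Transcripts of other cell types moved with the libraries in the members, and their part in the results above was not tested. The 8 goblet markers, all with UMIs in the members, summed to 6554, 13847 and 15676 CPM, against 60282, 72857 and 69897 outside. Of the 7 with enough UMIs, 5 were past 2-fold higher in B + A 0 than in AOS 0, against 19 of all 707 such genes (2.69%). Muc2, the main gut mucin, had 21, 86 and 74 UMIs in the members (log2 2.64, 1.94 to 3.41 for B + A 0 to AOS 0, and 1.77 without its highest cell). Stem markers summed to 479, 1122 and 533 and cycling markers to 763, 1561 and 943. T cell markers summed to 259, 259 and 1122 CPM in the members and 498, 578 and 806 outside. Their member Gzma, a granule protease of intraepithelial lymphocytes, had 51, 32 and 177 UMIs, 25% of all in 1 cell. Enterocyte markers summed to 6011, 5462 and 10774 CPM, Paneth markers to 3827, 5636 and 4006, ileal markers to 695, 670 and 1071, and proximal markers to 2193, 1618 and 3162. Targets of p53, the DNA damage response factor, summed to 1084, 538 and 721 in the members and 617, 493 and 524 outside. Of 9 tuft markers 2 had a UMI in the members, of 4 measured B and plasma cell markers 2, and of 3 measured glia and neuron markers 1. Of all 13891 genes, 11873 had a UMI in the members.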

How the data were processed

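Small intestines were profiled by droplet single-cell RNA sequencing in 3 libraries. Per the study's methods and the submitters' processing notes, reads were processed with Cell Ranger 2.2.0 against mm10 with 5000 forced cells, and the authors kept cells with at least 200 genes and genes in at least 3 cells. The deposited table holds natural log values, ln(1 + UMIs per 10000 UMIs of the cell), for 13891 genes and 12653 cells. Whole UMIs were recovered from these values (100% within 0.01 of a whole number). Columns with no sample numbered 0. Python 3.11.15 with numpy 2.4.6, scipy 1.17.1 and scanpy 1.11.5 was used, and scripts were tested on simulated data.

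Members, gene lists and the split were chosen with earlier results of these data known. Levels are UMIs summed over cells per 1000000 UMIs (CPM). Intervals are exact binomial for shares, Newcombe for differences, exact Poisson for levels and exact binomial for ratios. Thinning drew 1000 UMIs per cell. Doublets were scored with Scrublet (30 components) and kept. Named genes were the marker lists, the 10 largest and 10 smallest ratios between the sides, the 5 largest and 5 smallest between libraries, and the 5 leading genes of each hormone with at least 10 high cells, and a subset of these is described. Slc18a1, Trpa1, Neurod2 and Pax4, outside this rule, were named after their values were seen. Alternatives were other thresholds, minimum counts, scalings and thinning. The authors' own cell clusters were not used here. One gene is not reported here.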

Additional observations from a re-analysis of the deposited data

How the results depend on the processing

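With 1 library per group no replicate could be left out, and no result had a test. No paired analysis was possible because each group had 1 library. Some alternatives could not move a value, since the Defa limit removed 0 cells and every member had at least 3 UMIs of the 4 rule genes. Leaving out cells under 500 genes also left the Tph1 or Tac1 and Neurog3 differences unchanged. All of these are counted among the 193 values that follow. Of 237 alternative values, 193 lay within the reported value's counting interval, or within 1.5 times of a count, 43 did not, and 1 difference whose interval excluded 0 changed sign. That was the difference in the share of enteroendocrine cells from AOS 0 to B + A 0, which became 0.00967 points when cells were thinned before the rule. Of 153 alternative share differences, 15 others, whose reported interval includes 0, also changed sign, 13 lost and 6 gained an interval without 0. Alternatives on scaling without hormone genes, on members without Tph1 and Tac1, on cells with cycling markers on Neurog3 shares, on Ghrl without 2 cells and on transcription factors without Neurod1 were chosen after seeing the data. In the order B + A 0 to AOS 0 higher and lower, B + A 10 to B + A 0 higher and lower, and B + A 10 to AOS 0 higher and lower, the counts of genes past 2-fold were 46, 83, 26, 22, 58 and 67 with a minimum of 50 UMIs. With no minimum and 0.5 UMIs added they were 1755, 1712, 2048, 1927, 1805 and 2547. After thinning they were 2, 5, 8, 4, 10 and 6, and past 1.5-fold 101, 77, 35, 44, 87 and 86. With a minimum of 200 UMIs they were 12, 8, 11 and 4 for the first 2 pairs and 4 lower for the last. In members without Tph1 and Tac1, 16 genes were lower in B + A 0 and 9 in B + A 10 than in AOS 0. The 25 genes higher in Tph1 or Tac1 cells became 59 at 50 UMIs, 10 at 200, 2 with Tph1 or Tac1 at 10 per 10000 and 2 without cells of 5 cycling UMIs. The 23 lower genes became 39, 13 at 200 UMIs, 13 by means per cell, and 4 without such cells. The Tph1 or Tac1 share differences became 7.46 and -11.2 points at 10 per 10000. The differences in Tac1-high shares, -3.38 and -1.97, became 25.3 and -27.3 for any UMI after thinning. The causes were not tested. Of 78 named-gene ratios past 2-fold between libraries, 15 fell under 2-fold and 3 reversed without the cell with the most UMIs, namely Sst (0.57), Nnat (0.16) and Cdkn1c (0.66). The 28 members of B + A 0 and the shallow B + A 10 library limit the precision.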
